A study of Sthenoteuthis oualaniensis with 24 samples.

Results

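The unigenes described here are those of the dwarf form (DF) of Sthenoteuthis oualaniensis (SA), the purpleback flying squid, that were far more abundant in stomach than in intestine in mature and in immature SA. There were 132 of them among the 68627 unigenes of the DF (0.192%). They were chosen on the measured values: a group mean of at least 20 FPKM (sequenced fragments scaled to transcript length and to the size of the library) in both stomach groups, and a mean in stomach at least 8-fold that in intestine at both stages after 0.5 FPKM was added to each. Stomach and intestine were sampled from 3 mature and 3 immature DF SAs, so the tissues of a stage share animals. There were 3 libraries in each of 4 groups: mature stomach (DDS), immature stomach (DUS), mature intestine (DDI) and immature intestine (DUI). According to the methods of the study, mature SAs were at maturity stages III to V and immature SAs at stages I and II, all were wild-caught and untreated, and neither labels nor methods give their sex. Mature and immature SAs are different animals.

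A squid stomach is a muscular sac with a secreted lining, in which prey is broken down mechanically and by enzymes that arrive from the digestive gland. Absorption takes place mainly in the caecum, the digestive gland and the intestine. Food taken up along this tract feeds growth in immature squid and also the building of gonads in mature squid. A unigene is a transcript sequence assembled from the reads without a genome, so each is given here by its ID. Neither names nor sequences go with the IDs in the files. No function is therefore given to any unigene, no list of digestive enzymes, chitin, muscle or mucin genes could be applied, and the tissue labels could not be checked against marker genes.

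The 12 libraries had summed FPKM of 817827 to 922486. The files give no read counts. Unigenes of at least 1 FPKM numbered 19323 to 22486 in DDS, 28171 to 28270 in DUS, 36775 to 38384 in DDI and 40460 to 40658 in DUI. Low values moved in steps, as whole reads would: in DUI, 1571 unigenes had values in the ratio 1 to 1 to 2 within 2.5%, and the median of the lower value was 1.14 FPKM. In DDI, after the libraries were scaled to equal step size, 1374 unigenes had this ratio with a median of 1.12 FPKM. A unigene at 1 to 3 FPKM in intestine thus may rest on very few reads, while the stomach values of these unigenes lie well above that.

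The 132 unigenes took 13.4%, 13.6% and 13.7% of the summed FPKM in the 3 DDS libraries and 12.2%, 12.3% and 12.4% in the 3 DUS libraries. In intestine they took 0.196% to 0.203% in DDI and 0.208% to 0.212% in DUI. The stomach share was thus slightly higher in each mature than in each immature library, and the intestine share slightly lower. A high stomach share follows from the way the unigenes were chosen. The 5 highest in each library, which were not the same 5 in DDS and DUS, made up 55.8% to 56.9% of the summed FPKM of the 132 unigenes in DDS and 47.1% to 47.7% in DUS. Without the most abundant unigene of all, the mean share was 11.6% in DDS and 10.5% in DUS. That unigene, CL40016Contig1, took similar shares at both stages, 1.88% to 2.08% in DDS and 1.84% to 1.88% in DUS. CL66054Contig1 took 2.01% to 2.03% in DDS and 0.152% to 0.156% in DUS, a wider gap than that between the shares of the 132. CL57324Contig1 took 1.63% to 1.74% in DDS and 0.259% to 0.276% in DUS, which is also a wider gap. The higher stomach share in DDS thus depends on CL66054Contig1 and on CL57324Contig1, each by itself. Group means ran down to 20.7 FPKM with a median of 165.8 FPKM in DDS, and down to 21.6 FPKM with a median of 217.8 FPKM in DUS. In DDI the median was 3.35 FPKM and the highest mean 137.6 FPKM, and in DUI these were 3.49 and 221.0 FPKM. Among all unigenes of the DF, 5 of the 10 most abundant in DDS and 4 of the 10 most abundant in DUS were among these 132. None was among the 100 most abundant of DDI or DUI.

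**Figure D1:**
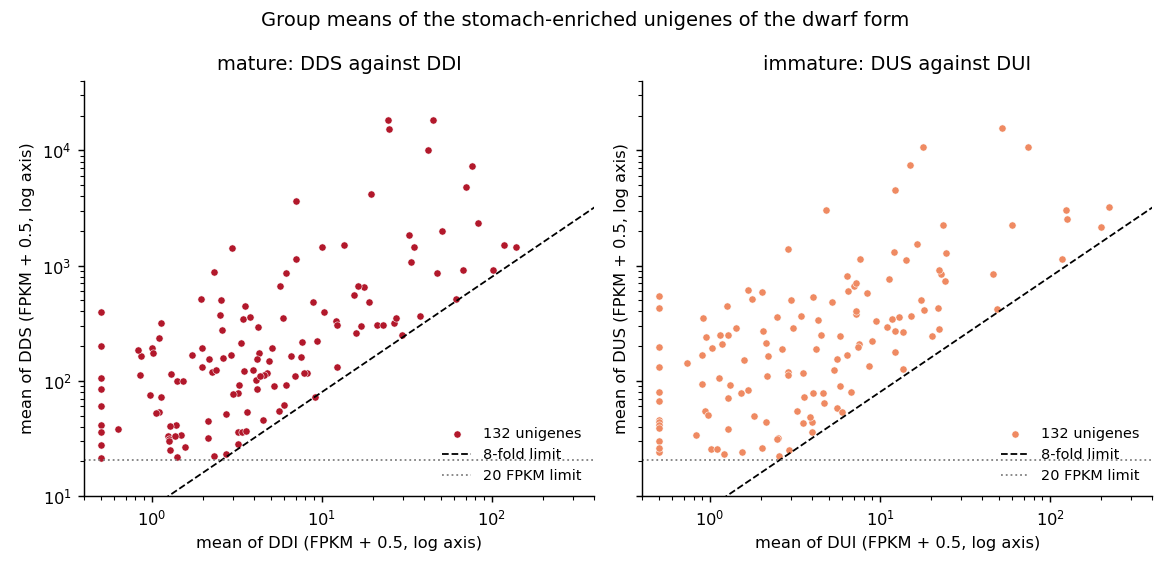
Group means of the 132 unigenes on log axes (FPKM + 0.5), stomach on the vertical and intestine on the horizontal axis, for mature SA (left) and immature SA (right); each point is 1 unigene, the dashed line is the 8-fold limit and the dotted line the 20 FPKM limit used to choose them. The points reach from the limits up to 18339 FPKM in DDS and 15620 FPKM in DUS, and the column of points at 0.5 on the horizontal axis is listed at 0 in intestine.

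The most abundant of them, CL40016Contig1, was at 16478, 18985 and 19137 FPKM in DDS and at 15423, 15666 and 15772 FPKM in DUS. In DDI it was at 36.9, 48.6 and 47.4 FPKM, and in DUI at 47.5, 54.2 and 54.2 FPKM. Among all unigenes it had rank 3 in DDS and rank 2 in DUS, and its stomach libraries did not overlap between the stages. CL58022Contig1 had 11045, 9870 and 9430 FPKM in DDS and 10752, 10650 and 10754 FPKM in DUS, so the stomach groups overlapped. In intestine it was at 34.9, 44.3 and 44.7 FPKM in DDI, against 19.9, 10.9 and 21.3 FPKM in DUI. The difference between the stages was small in both: the log2 fold change of DDS over DUS was 0.22 for CL40016Contig1 (adjusted p = 0.0346 from limma) and -0.09 for CL58022Contig1 (adjusted p = 0.291). The sign of these is not fixed, since it was -0.025 for CL40016Contig1 after quantile normalization and 0.13 for CL58022Contig1 after median-of-ratios scaling.

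CL66054Contig1 and CL57324Contig1 differed widely between the stages in stomach, while their intestine values overlapped. CL66054Contig1 was at 17755, 18732 and 18529 FPKM in DDS, against 1312, 1278 and 1289 FPKM in DUS. Its intestine values were 20.5, 25.6 and 25.6 FPKM in DDI and 22.6, 25.6 and 23.6 FPKM in DUI. CL57324Contig1 had 14226, 15953 and 16017 FPKM in DDS, against 2173, 2316 and 2288 FPKM in DUS. In intestine it had 19.2, 26.3 and 27.6 FPKM in DDI and 23.4, 20.1 and 25.4 FPKM in DUI. For both, no stomach library of a stage came near those of the other, while the intestine libraries of the stages overlapped.

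The remaining 2 of the 6 most abundant were lower in each DDS than in each DUS library, by less than the 2-fold limit used for calls below. CL39444Contig1 was at 6075, 7896 and 8140 FPKM in DDS and at 10174, 10530 and 11252 FPKM in DUS. It was at 61.0 to 84.0 FPKM in DDI and 64.2 to 80.1 FPKM in DUI. CL39826Contig1 was at 3980, 4247 and 4264 FPKM in DDS and at 7456, 7535 and 7446 FPKM in DUS. In intestine it was at 17.9 to 20.3 FPKM in DDI and 12.5 to 18.2 FPKM in DUI, with overlap between the stages.

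**Figure D2:**
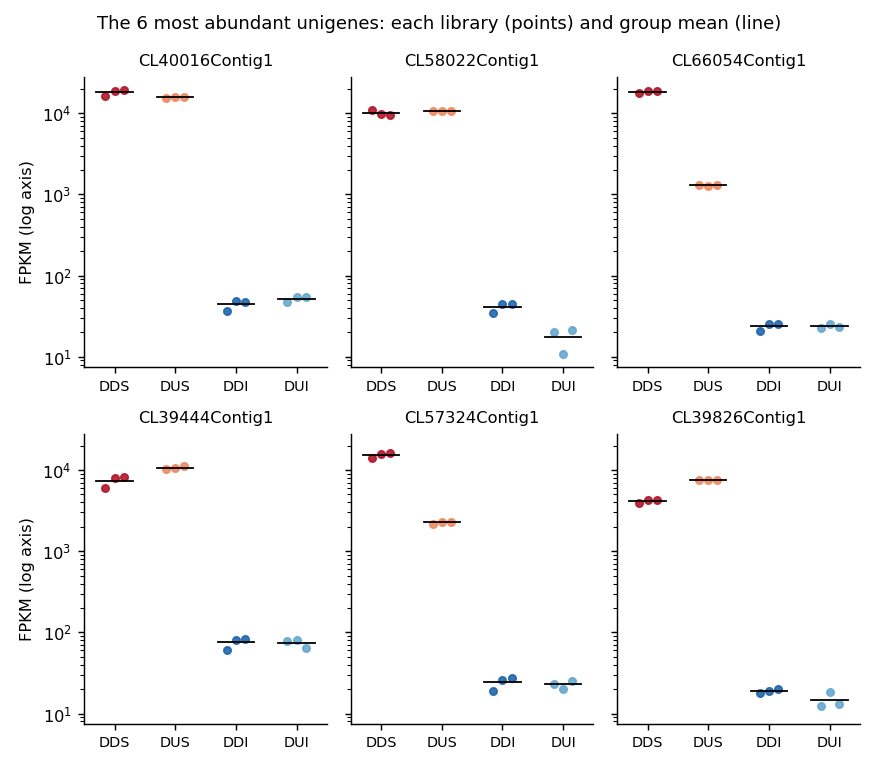
FPKM (log axis) of the 6 most abundant unigenes in each of the 12 libraries (points) with the group mean (line), from left to right DDS, DUS, DDI and DUI. CL66054Contig1 and CL57324Contig1 stand apart, with means of 18339 and 15399 FPKM in DDS and 1293 and 2259 FPKM in DUS, while their DDI and DUI points lie at the same level.

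The ratio of stomach to intestine, with 0.5 FPKM added, is given as a description, since it chose the unigenes. Its median was 37.5 in mature SA (quartiles 18.2 and 97.0) and 51.1 in immature SA (quartiles 20.6 and 107.5). It was larger in mature than in immature SA for 52 of the 132 unigenes. Both ratios were at least 16 for 95 unigenes and at least 100 for 17. For each of the 132 unigenes, all 6 stomach libraries were above all 6 intestine libraries. Those above 0 in every intestine library (88 unigenes) were ordered by the smaller of their 2 ratios, which was largest for CL57934Contig1. It was at 1324, 1405 and 1523 FPKM in DDS against 2.51, 2.20 and 2.60 FPKM in DDI, and at 1370, 1378 and 1444 FPKM in DUS against 2.84, 2.87 and 1.43 FPKM in DUI. Its ratios of 482.2 in mature and 485.4 in immature SA were not the largest at either stage. CL66054Contig1 had 751.5 in mature SA and CL62665Contig1 had 626.5 in immature SA. The third DUI value of CL57934Contig1 is to its other DUI values about as 1 to 2, so its ratios may rest on a handful of reads in intestine. By the smaller ratio CL40016Contig1 came next and then CL59851Contig1. The latter had 868.3, 898.2 and 882.1 FPKM in DDS against 1.86, 1.08 and 2.55 FPKM in DDI, and 609.9, 590.3 and 578.9 FPKM in DUS against 2.02, 1.02 and 1.50 FPKM in DUI.

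Some of these unigenes were listed at 0 in intestine: 9 in all 3 DDI libraries, 13 in all 3 DUI libraries, and 3 of them in all 6. Those at 0 in all 6 were CL9435Contig1, CL27729Contig1 and CL6048Contig1, named because they are so few. CL9435Contig1 was at 84.4, 114.4 and 116.4 FPKM in DDS and 544.4, 537.8 and 548.0 FPKM in DUS. CL27729Contig1 was at 168.5, 201.2 and 234.6 FPKM in DDS and 36.5, 46.8 and 46.0 FPKM in DUS. CL6048Contig1 was at 27.7, 39.1 and 39.3 FPKM in DDS and 32.9, 23.6 and 20.1 FPKM in DUS, with overlap. No fold between the tissues is given for these 3, because a value listed at 0 can also be a failed estimate.

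At the limits of the choice, CL57080Contig1 and CL47806Contig1 were just inside the ratio limit, with smaller ratios of 8.05 and 8.35, while CL60028Contig1 and CL41246Contig1 were just outside with 7.77 and 7.76. CL57826Contig1 and CL5104Contig1 were just inside the level limit, with lower stomach means of 20.7 and 21.5 FPKM. CL2597Contig1 and CL58312Contig1 were just outside with 19.9 and 19.6 FPKM. The limits were met in mature SA by 184 unigenes and in immature SA by 232, so that the 132 met at both stages were 71.7% of the mature and 56.9% of the immature list. Of the 52 met in mature SA alone, 17 missed only the ratio in immature SA, 11 only the level and 24 both. Of the 100 met in immature SA alone, 41 missed only the ratio in mature SA, 19 only the level and 40 both.

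The 3 libraries of a group lay close together for abundant unigenes. The coefficient of variation (CV) of the 132, where the group mean reached 200 FPKM, had a median of 5.42% in DDS (58 unigenes) and 1.68% in DUS (69 unigenes). Under 200 FPKM it was 14.8% in DDS (74 unigenes) and 5.02% in DUS (63 unigenes). Other unigenes of at least 200 FPKM had medians of 6.13% in DDS and 1.97% in DUS, so the spread was wider in DDS among these as well. DDS_1 lay below the mean of DDS_2 and DDS_3 for 88 of the 132 unigenes, with a median difference of -6.40%. DDS_1 also had the fewest unigenes above 0 (21787, against 24032 and 30090 in the other DDS libraries). In intestine the median CV of those above 0 was 25.7% in DDI and 23.8% in DUI. The study describes 3 SAs per group, but the p-values below measure only the spread between these libraries, which may be partly technical.

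Between mature and immature stomach, the comparison asks how far gonadal maturation goes with a change in the stomach. Of the 132 unigenes, 45 were called: 15 were higher and 30 lower in DDS than in DUS. Calls are those of limma on log2(FPKM + 0.5) over the 6 stomach libraries, with an adjusted p (Benjamini-Hochberg over the 33161 unigenes tested) under 0.05 and a log2 fold change of at least 1 in size. All 132 passed the filter on low values. The 45 were 34.1% of the 132, beside 23.5% of all unigenes tested. By direction, 11.4% of the 132 were higher, beside 3.17% of all tested, and 22.7% were lower, beside 20.3% of all tested. Because the 132 are abundant in stomach by choice, they were also set beside the 3602 other unigenes of at least 20 FPKM in both stomach groups, of which 7.97% were called (3.80% higher and 4.16% lower). Against these, the larger share held for both directions. No test of the difference in shares was made. In bulk tissue, fewer cells of a type and less RNA per cell cannot be told apart.

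The median log2 fold change of the 132 in stomach was -0.12 (quartiles -0.94 and 0.49), with 60 above 0 and 72 below. Over all unigenes tested it was -0.52, and over the 3602 other abundant ones 0.05 (quartiles -0.30 and 0.42). The median size of the change regardless of direction was 0.64 for the 132 and 0.36 for the other abundant unigenes. The balance of directions depends on the scaling of the libraries. After median-of-ratios scaling 20 of the 132 were higher and 19 lower in DDS (51.3% higher, against 33.3% with the deposited values), and after quantile normalization 15 were higher and 33 lower. Over all unigenes, 1496 were higher and 5461 lower of 32700 after median-of-ratios scaling, and 1784 were higher and 2698 lower of 33161 after quantile normalization, against 1051 higher and 6743 lower with the deposited values. How the share of the 132 that was lower in DDS compares with that of all unigenes thus depends on the scaling. Under all 16 settings tried, 14 of the 15 remained called higher and 19 of the 30 remained called lower. Leaving out DUS_3 lowered the calls over all unigenes to 5175 of 32165, while the calls among the 132 stood at 46.

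**Figure D3:**
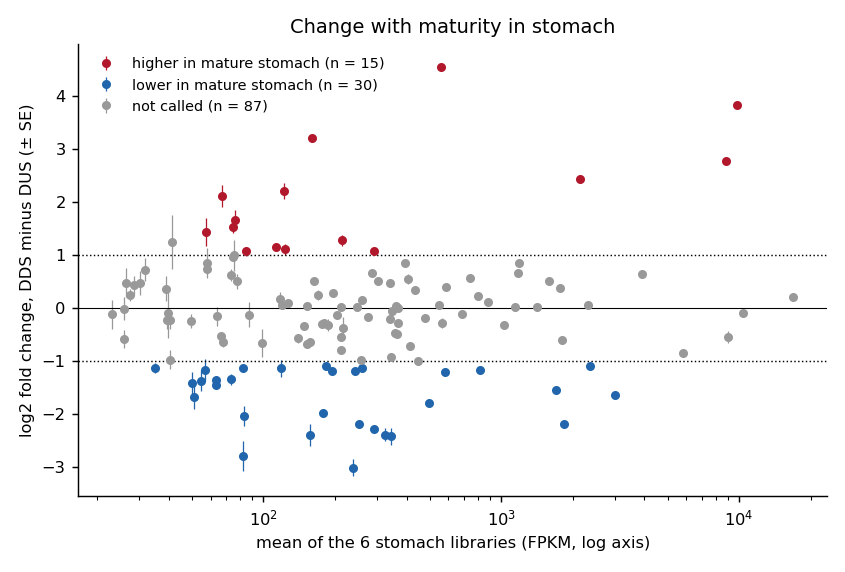
Log2 fold change of DDS over DUS (vertical, with its standard error from limma) against the mean of the 6 stomach libraries (FPKM, log axis) for the 132 unigenes; red points are the 15 called higher, blue the 30 called lower and grey the 87 not called, and dotted lines mark a log2 fold change of 1. Called unigenes lie at low and at high levels, and the highest red point, at 4.55, is CL8113Contig1.

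Calls were spread over the range of levels. Of the 21 unigenes with a stomach mean of at least 1000 FPKM, 3 were higher, 4 lower and 14 not called. Of the 46 at 200 to 1000 FPKM, 3 were higher and 10 lower, and of the 65 below, 9 were higher and 16 lower. Shares called among all unigenes at these stomach levels are not given, so the counts are a description only. The 15 unigenes called higher together took 4.43% to 4.49% of the summed FPKM in DDS and 0.585% to 0.598% in DUS. The 30 called lower took 0.782% to 0.792% in DDS and 2.54% to 2.56% in DUS. The 87 not called took 8.20% to 8.40% in DDS and 9.10% to 9.26% in DUS. CL66054Contig1 and CL57324Contig1 made up most of the share of those called higher, at 2.01% to 2.03% and 1.63% to 1.74% of the DDS libraries.

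The largest rise in stomach was that of CL8113Contig1, at 1051, 1073 and 1076 FPKM in DDS, against 43.7, 45.0 and 46.4 FPKM in DUS. Its log2 fold change was 4.55 ± 0.04 (SE), with an adjusted p of 2.85e-07 from limma, or 23.7-fold by group means. It also differed in intestine, at 35.9, 35.3 and 27.7 FPKM in DDI and listed at 0 in all 3 DUI libraries. The mature intestine thus came close to the level of the immature stomach for this unigene, without reaching it. CL66054Contig1, whose values stand above, followed with a log2 fold change of 3.83 ± 0.03 (SE; 14.2-fold, adjusted p = 8.02e-08 from limma).

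CL57632Contig1 was at 266.2, 297.2 and 308.1 FPKM in DDS, against 31.6, 30.5 and 31.4 FPKM in DUS, a log2 fold change of 3.20 ± 0.07 (SE; 9.32-fold). In intestine it was at 3.42 to 4.14 FPKM in DDI and 1.51 to 2.66 FPKM in DUI, without overlap. CL57324Contig1 rose by a log2 fold change of 2.77 ± 0.05 (SE; 6.82-fold). CL62415Contig1 was at 3655, 3642 and 3524 FPKM in DDS, against 678.7, 658.5 and 659.8 FPKM in DUS, a log2 fold change of 2.44 ± 0.03 (SE; 5.42-fold). Its intestine values were 4.34, 5.45 and 9.69 FPKM in DDI and 8.25, 7.51 and 3.88 FPKM in DUI, with overlap. Of these 5 rises, only that of CL8113Contig1 went with a call in intestine. The 15 rises had log2 fold changes of 1.07 to 4.55 with a median of 1.66.

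The largest fall was that of CL10037Contig1, at 46.1, 67.6 and 46.8 FPKM in DDS, against 435.9, 412.3 and 427.2 FPKM in DUS. Its log2 fold change was -3.00 ± 0.15 (SE), with an adjusted p of 1.67e-04 from limma, and the mean of DUS was 7.95 times that of DDS. In intestine it was at 0.508, 0.593 and 0.708 FPKM in DDI and listed at 0 in DUI. CL5104Contig1 was at 17.0, 15.2 and 32.4 FPKM in DDS, against 137.8, 148.4 and 143.6 FPKM in DUS (log2 fold change -2.79 ± 0.28, SE). Its DDS values differed more than 2-fold among themselves, and 2 of them lie under the 20 FPKM limit that its mean met.

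CL5918Contig1 was at 123.2, 82.9 and 124.0 FPKM in DDS, against 557.8, 584.9 and 595.2 FPKM in DUS (log2 fold change -2.41 ± 0.16, SE). CL9435Contig1, listed at 0 throughout the intestine, had a log2 fold change of -2.38 ± 0.13 (SE) in stomach. CL28254Contig1 was at 37.0, 67.3 and 49.9 FPKM in DDS, against 243.1, 285.2 and 264.6 FPKM in DUS (log2 fold change -2.39 ± 0.21, SE). It was also lower in the mature intestine, at 1.01, 0 and 5.65 FPKM in DDI against 15.8, 13.7 and 10.2 FPKM in DUI, which was not called. By the mean of the stomach libraries these 5 unigenes stood between ranks 45 and 95 of the 132, and all 5 had a wider spread in DDS than in DUS as a share of the mean. The 30 falls had log2 fold changes of -3.00 to -1.08 with a median of -1.43. These 5 rises and 5 falls kept their calls under all 16 settings.

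**Figure D4:**
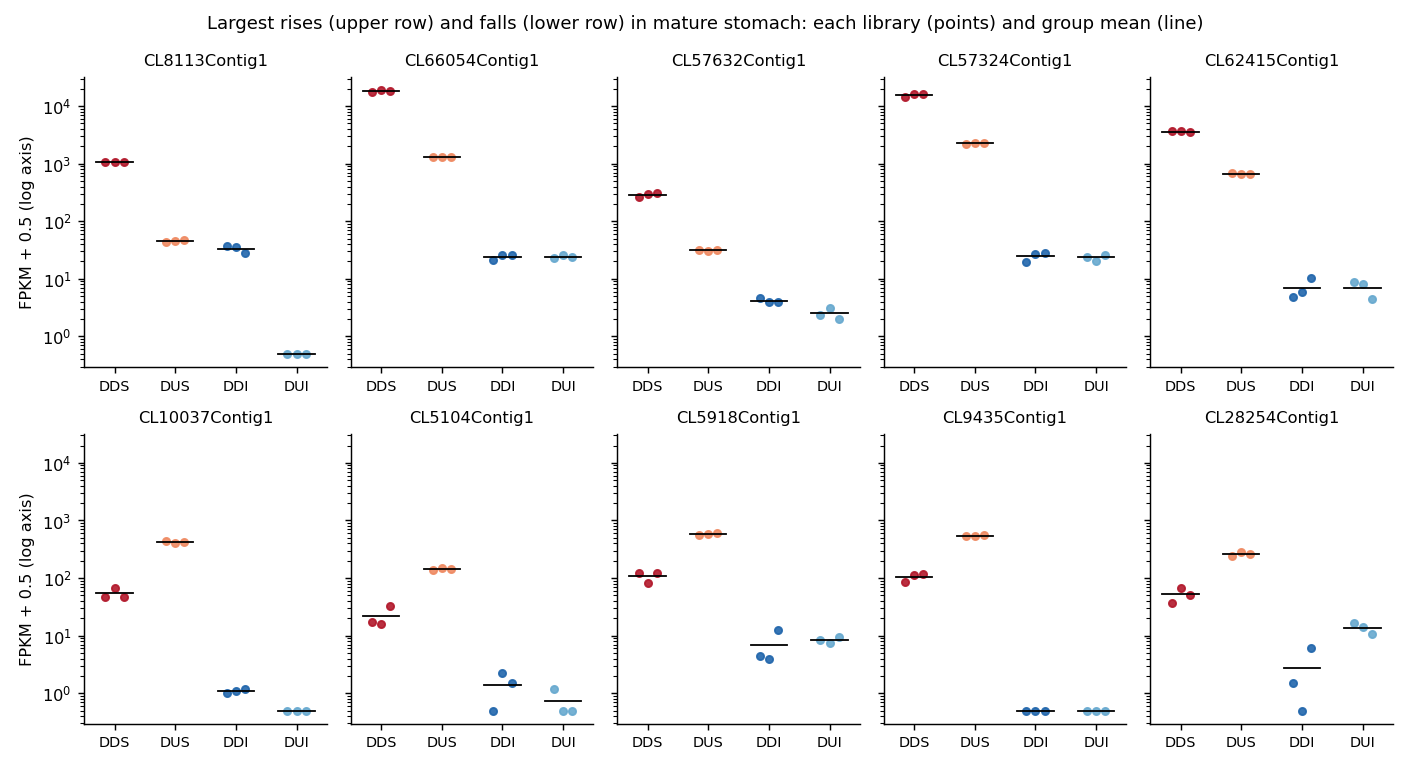
FPKM + 0.5 (log axis) in each of the 12 libraries (points) with the group mean (line) for the 5 largest rises (upper row) and the 5 largest falls (lower row) in mature stomach, from left to right DDS, DUS, DDI and DUI; points at 0.5 are listed at 0. The stomach groups are clear of each other in all 10 panels, while the DDI and DUI points are clear of each other for CL8113Contig1, CL57632Contig1, CL10037Contig1 and CL28254Contig1.

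Among the 87 unigenes not called in stomach, log2 fold changes were -0.99 to 1.24 and the median was 0.01. For 57 of them the DDS and DUS libraries nevertheless did not overlap. Without regard to size, 42 of the 132 were higher in each DDS than in each DUS library (31.8%, beside 10.6% of all unigenes tested and 34.5% of the 3602 other abundant ones), and 60 were lower (45.5%, beside 36.6% and 29.0%). In either direction this was 77.3% of the 132, beside 47.2% of all tested and 63.6% of the other abundant ones. By group means 40 of the 132 were within 1.25-fold between the stages, 5 of them at 1000 FPKM or more in both stomach groups. CL57934Contig1 was among the closest, with means of 1417 FPKM in DDS (CV 7.05%, n = 3 libraries) and 1398 FPKM in DUS (CV 2.88%, n = 3 libraries).

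In intestine these unigenes were low by choice, and 120 of the 132 passed the filter on low values. Of these 120, 33 were called between DDI and DUI, 19 higher and 14 lower (27.5%, beside 12.2% of the 54695 unigenes tested). By direction these were 15.8% higher and 11.7% lower, beside 5.74% and 6.49% of all unigenes tested, and 6.27% and 1.30% (7.58% in either direction) of the 3602 unigenes abundant in stomach that were not chosen. These 3602 all passed the filter and were not matched to the 132 for level in intestine. With the 3 DUI libraries averaged as 1 sample, which leaves fewer degrees of freedom for the spread, 15 of 122 were called, 10 higher and 5 lower. Without DDI_1, 22 of 119 were called among these unigenes and 4438 of 55081 over all. Under all 17 settings tried, 8 of the 19 and 2 of the 14 remained called. These settings include a filter at a mean of 5 FPKM, which left unigenes of lower intestine mean untested and so not counted. With each library left out in turn, 12 of the 19 and 9 of the 14 remained called. Of the 34 unigenes with an intestine mean of at least 10 FPKM, 10 were called higher and 4 lower. Of the 72 at 1 to 10 FPKM, 9 were higher and 8 lower, with a median CV of 30.4% in DDI and 33.3% in DUI. Shares called among all unigenes at these intestine levels are not given, so the counts are a description only. For single unigenes in intestine no p-value is given.

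The unigenes with the widest differences between DDI and DUI had 1 group listed at or near 0. CL8113Contig1, described above, differed most. CL58489Contig1 was at 8.11, 4.75 and 3.69 FPKM in DDI and listed at 0 in DUI, and CL21769Contig1 at 5.95, 2.30 and 2.67 FPKM in DDI and at 0 in DUI. In stomach CL58489Contig1 overlapped between the stages, at 44.8, 65.4 and 73.3 FPKM in DDS and 65.5, 67.9 and 66.2 FPKM in DUS. CL21769Contig1 was higher in mature stomach as well, at 119.7, 55.0 and 80.1 FPKM in DDS, against 28.9, 31.0 and 28.8 FPKM in DUS.

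In the other direction, CL58918Contig1 was listed at 0 in DDI and at 6.87, 2.77 and 6.20 FPKM in DUI. CL52825Contig1 was at 0, 0 and 0.976 FPKM in DDI and at 4.49, 3.87 and 6.87 FPKM in DUI. CL2174Contig1 was listed at 0 in DDI and at 2.22, 2.23 and 3.28 FPKM in DUI. These 3 were not called in stomach. The intestine calls of CL58489Contig1, CL21769Contig1 and CL52825Contig1 were lost with DUI averaged as 1 sample though their directions held, and that of CL52825Contig1 also without DDI_1 or without DUI_3. In stomach CL2174Contig1 was at 382.6, 390.1 and 422.2 FPKM in DDS and 296.0, 294.4 and 264.9 FPKM in DUS, higher in each mature library.

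The changes in stomach and in intestine are set side by side as a description only. The choice of the 132 required the ratio of the tissues at both stages, which favours unigenes that change in the same direction in both. Of the 15 called higher in stomach, 3 were called higher in intestine, none lower, 11 not called and 1 was not tested. Of the 30 called lower in stomach, 6 were called lower in intestine, 2 higher, 17 were not called and 5 were not tested.

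Among the 6 that were lower in both tissues, CL49695Contig1 was the most abundant, at 835.9, 881.3 and 885.3 FPKM in DDS, against 2526, 2550 and 2539 FPKM in DUS. In intestine it was at 47.2, 46.6 and 46.4 FPKM in DDI, against 121.0, 124.7 and 129.2 FPKM in DUI. The libraries of the stages were clear of each other in both tissues, at levels well above that of single reads. The 2 with opposite calls were CL45516Contig1, at 151.2, 169.1 and 170.5 FPKM in DDS, against 356.6, 360.9 and 357.6 FPKM in DUS, with 6.30, 5.63 and 6.42 FPKM in DDI, against 2.22, 1.84 and 1.91 FPKM in DUI, and CL45216Contig1, whose means were 35.3 FPKM in DDS, against 91.1 FPKM in DUS, and 2.69 FPKM in DDI, against 0.817 FPKM in DUI. CL49695Contig1, CL45516Contig1 and CL45216Contig1 were picked after their values were seen. That a unigene was called in 1 tissue and not in the other does not show that its change differed between the tissues, which was not tested because the choice of the 132 used the ratio of the tissues at both stages.

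**Figure D5:**
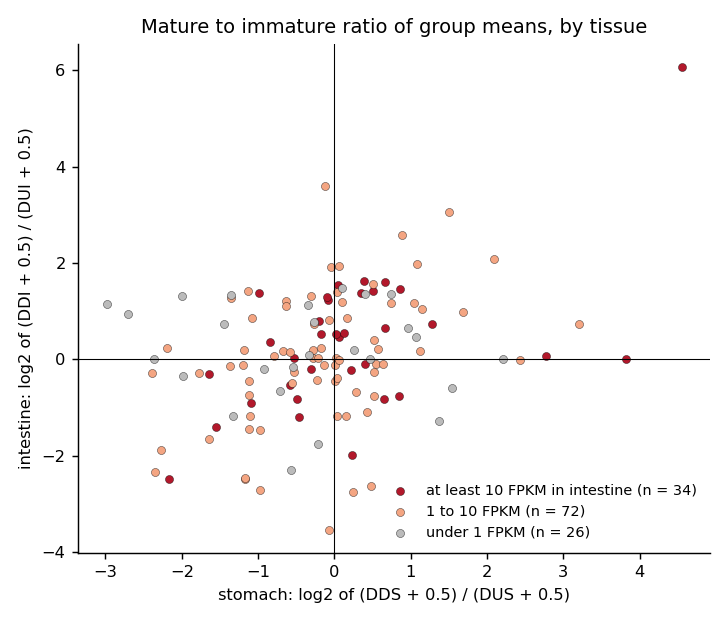
Log2 ratio of mature to immature group means (0.5 FPKM added) in stomach (horizontal) and in intestine (vertical) for the 132 unigenes, with ratios against a group listed at 0 set by the added 0.5, coloured by the mean of the 6 intestine libraries (red at least 10 FPKM, 34 unigenes; orange 1 to 10 FPKM, 72; grey under 1 FPKM, 26). The point at the upper right is CL8113Contig1, and the 2 red points to the right on the horizontal zero line are CL66054Contig1 and CL57324Contig1, which changed in stomach with log2 ratios near 0 in intestine.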

How the data were processed

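The authors deposited FPKM values per unigene for each library of the DF, from stranded libraries sequenced on an Illumina instrument and assembled with Trinity. The sources used here do not name the program that gave the FPKM. The file names the DF "Micro". Count methods could not be used, and the MF, with an assembly and IDs of its own, was not used here. No column of another sample was present.

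Maturity was tested in each tissue with limma 3.58.1 (R 4.3.3, intensity trend, no replicate block) on log2(FPKM + 0.5) of 6 libraries, for unigenes whose mean reached 0.5 FPKM, with Benjamini-Hochberg adjustment. Fold changes on this scale understate those of low unigenes. On simulated data, 200 unigenes were changed by a log2 fold of 2, all taken from those averaging 20 FPKM or more. Between DDS and DUS 200 of 200 were recovered, with 25 false calls among 41688 tested. Between DDI and DUI 200 of 200 were recovered, with 23 false calls among 55531. The intestine means of the 132 had a median of 3.28 FPKM, and recovery at such low levels was not tested. Python 3.11.15, numpy 2.4.6 and pandas 2.3.3 served for the rest.

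The unigenes and lists were chosen with earlier results of these data known. Named were the 6 most abundant, the 5 largest called rises and falls in stomach, the 3 widest differences in each direction in intestine (mean of at least 1 FPKM, no overlap), the 3 with the largest smaller ratio among those above 0 in every intestine library, and those near the limits. Alternatives were other pseudocounts, filters and scalings, no trend, an unadjusted P, a replicate block, each library left out, and, in intestine, DUI or DDI_1 and DDI_2 averaged as 1 sample. Leaving out DDS_1 and DUS_1 together was chosen after seeing the data.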

Additional observations from a re-analysis of the deposited data

Results flagged for a closer look

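The stages differed in opposite directions in stomach and in intestine, without overlap of the libraries in either tissue, for 4 of the unigenes named. The difference between the tissues was not tested. Log2 ratios are those of mature to immature means with 0.5 FPKM added. CL45516Contig1 had a log2 ratio of -1.13 in stomach and 1.41 in intestine, and CL45216Contig1 had -1.36 in stomach and 1.28 in intestine. Both were called in both tissues with the deposited values. After median-of-ratios scaling only 19 of the 30 falls in stomach stayed called, and the stomach change of CL45516Contig1 lies near the limit for a call. CL10037Contig1 had a log2 ratio of -2.98 in stomach and was in intestine at 0.508 to 0.708 FPKM in DDI and listed at 0 in DUI. CL2174Contig1 had a log2 ratio of 0.48 in stomach and was in intestine listed at 0 in DDI and at 2.22 to 3.28 FPKM in DUI. The intestine values of CL10037Contig1, CL2174Contig1 and CL45216Contig1 are low and may rest on very few reads, which cannot be checked without read counts.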

How the results depend on the processing

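The number of the 132 unigenes called in stomach was 44 to 49 with each library left out, 39 after median-of-ratios scaling, 48 after quantile normalization and 45 without DDS_1 and DUS_1. Over all unigenes it was 2323 where only means from 5 FPKM up were kept, 4482 after quantile normalization, and 5175 to 8953 with each library left out. The median log2 fold change of the 132 in stomach was -0.17 to -0.11 with each library left out, -0.21 after quantile normalization and 0.093 after median-of-ratios scaling. CL40016Contig1 turned to -0.025 after quantile normalization and CL58022Contig1 to 0.13 after median-of-ratios scaling. In intestine, 22 to 33 were called with each library left out, 15 with DUI averaged as 1 sample, and 20 of 55 where only means from 5 FPKM up were kept. Over all unigenes these were 4438 to 8660, 4113 and 2246, and 4350 with DDI_1 and DDI_2 averaged. The intestine median was 0.0075 to 0.19 with each library left out. Replicate numbers did not pair mature with immature libraries of a tissue. Deviations from the group means of same-numbered libraries correlated at 0.035, 0.024 and 0.008 in stomach and -0.006, -0.008 and -0.002 in intestine. By the methods of the study, stomach and intestine of a stage were taken from the same SAs, but whether their libraries pair by number was not checked. With a replicate block, 45 of the 132 were called in stomach and 23 of 120 in intestine, and 4798 and 3722 over all unigenes. The choice itself gave 130 to 136 unigenes with each library left out, 167 after median-of-ratios scaling, and 106 when the lowest stomach library was set against the highest intestine library. Of the alternative values for the named unigenes, 293 kept direction and call, 5 lost the call, 1 gained it and 2 turned. Except where fewer unigenes or libraries entered, the cause was not tested. The absent read counts and the low intestine values set the limits on precision.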

Other observations

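The IDs group unigenes into clusters of similar contigs, and 2 of the 132 came from a cluster with a further contig, named here after their values were seen. CL871Contig1 had means of 304.7 FPKM in DDS, 125.7 FPKM in DUS, 22.2 FPKM in DDI and 13.2 FPKM in DUI. Its cluster partner CL871Contig2 had 128.2, 89.7, 26.1 and 21.5 FPKM in the same order, with ratios of stomach to intestine of 4.83 in mature and 4.09 in immature SA. CL88Contig1 had means of 367.7 FPKM in DDS, 356.3 FPKM in DUS, 37.1 FPKM in DDI and 12.5 FPKM in DUI. Its partner CL88Contig2 had 68.1, 61.7, 39.0 and 33.0 FPKM, with ratios of 1.74 in mature and 1.85 in immature SA. Neither partner met the limits, and reads shared between contigs of a cluster could have been split between them, which makes the values of both uncertain.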
